A study of Mus musculus with 12 samples.

Results

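The Toll-like receptors Tlr1 to Tlr9 were examined in liver and lung of mice 6 h after sham surgery or CLP. CLP usually means cecal ligation and puncture, in which the tied and pierced cecum leaks gut bacteria into the peritoneal cavity, a common way to induce sepsis in mice. All mice were wild-type C57BL/6J, and the labels give no age or sex. Each of the 4 groups (sham liver, CLP liver, sham lung, CLP lung) held 3 libraries, 12 in all, made from RNA of whole tissue. The 9 receptors were picked out by gene symbol among the 55414 genes of the counts table, by a rule that uses no measured value, although results of these data were known when the family was proposed. By the place where the proteins are known to act they were divided into 5 surface receptors (Tlr1, Tlr2, Tlr4, Tlr5 and Tlr6) and 4 endosomal receptors (Tlr3, Tlr7, Tlr8 and Tlr9). Because nothing in the labels ties each library to its own mouse, the p-values cover the spread among these libraries, which may be technical.

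Toll-like receptors are membrane proteins of innate immunity that bind conserved molecules of microbes and, through TIR-domain adaptors such as MyD88 and TRIF, activate NF-kB and interferon regulatory factors. The surface receptors bind bacterial lipopeptides (Tlr2 with Tlr1 or Tlr6), lipopolysaccharide (Tlr4) and flagellin (Tlr5), while the endosomal receptors bind double-stranded RNA (Tlr3), single-stranded RNA (Tlr7, Tlr8) and unmethylated CpG DNA (Tlr9). Myeloid cells carry most of these receptors, and in liver Kupffer cells and sinusoidal endothelial cells, which face blood from the gut, are known to carry several of them as well.

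Promoter letters are shown because NF-kB, interferon regulatory factors, the myeloid factor PU.1 and AP-1 are known regulators of genes in innate immunity. RefSeq promoters of build GRCm38.p6 were matched by symbol for 7 of the 9 receptors (all but Tlr4 and Tlr7), which gave 9 promoters because Tlr1 and Tlr6 each had a second start. The 250 bases before each start were searched on both strands for a kB-type motif (GGNNTTTCC), an interferon-type motif (GAAANNGAA), a PU.1-type motif (GAGGAAGT) and an AP-1-type motif (TGANTCA). A second kB-type motif, GGGAATTCC, was added after the Tlr2 sequence had been read. Each stretch of 30 bases below runs 5′ to 3′ along the gene's own strand, with the matched letters in capitals.
Tlr1: attaaatgttgGAGGAAGTaggagcttgaa
Tlr2: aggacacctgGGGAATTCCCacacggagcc
Tlr3: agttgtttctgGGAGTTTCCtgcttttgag
Tlr5: cagcagcgggcGGTGTTTCCctctcctccc
Tlr6: ctattcttTTCTCTTTCACTTTCtgtttga
Tlr8: tttcctctgaaTTCAGTTTCgaaattttta
Tlr9: gcaaatgatgtgTGACTCAttgtaccacct

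The Tlr1 stretch (chr5:64933563-64933592, minus strand) holds the PU.1-type motif, 23 to 16 bases before the start. The Tlr2 stretch (chr3:83841761-83841790, minus strand) holds the added kB-type motif on both strands, in overlapping matches from 172 to 163 bases before the start. The searched kB-type motif stands 210 to 202 bases before the start of Tlr3 (chr8:45410572-45410601, minus strand) and 20 to 12 bases before that of Tlr5 (chr1:182954757-182954786, plus strand). The interferon-type motif was read on the opposite strand in Tlr6 (chr5:64959260-64959289, minus strand), in 2 overlapping matches, and in Tlr8 (chrX:167264378-167264407, minus strand). Tlr9 (chr9:106222528-106222557, plus strand) holds the AP-1-type motif 58 to 52 bases before its start. The second starts of Tlr1 and Tlr6 held none of these motifs. Among all 32851 promoters of the table the same window held the kB-type motif in 4.93%, the interferon-type in 7.13%, the PU.1-type in 2.44%, the AP-1-type in 6.75% and the added kB-type in 0.21%. A match is a description of letters, and no binding was measured. The searched kB-type motif stood before Tlr3, which rose in liver and did not pass the test in lung, and before Tlr5, which fell in both organs. The added kB-type motif was written from the Tlr2 sequence, so its match there was fixed in advance.

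The libraries held between 10559895 and 15854117 counts. Levels are given as CPM, counts relative to the library size after scaling within each organ, and 3 counts were worth 0.179 to 0.308 CPM. Hepatocyte transcripts (7 markers, Alb among them) summed to at least 62790 CPM in every liver library and to at most 127.5 CPM in every lung library. From the median of 7 lung epithelial markers, the liver libraries could hold 0.0117% to 0.114% of lung RNA, which would add at most 0.227 CPM to a receptor. Neutrophil markers rose in both organs, 9 of 9 tested in liver and 10 of 10 in lung, and their summed level went from between 18.2 and 20.4 to between 160.9 and 221 CPM in liver and from between 1006 and 1141 to between 6546 and 9181 CPM in lung. General leukocyte markers rose in 3 of 5 cases in liver (summed level 53.4 to 54.9 CPM in sham, 77.9 to 98.7 after CLP) and in 5 of 5 in lung (391 to 442 in sham, 1174 to 1726 after CLP). Of 8 monocyte markers, 5 rose in liver (15.9 to 19.4 CPM in sham, 46.5 to 48.8 after CLP), and in lung 7 rose while Ace, which dominates the sum there, fell (2257 to 2481 CPM in sham, 2088 to 2194 after CLP). No marker of these 3 lists was at 0 in any group. In liver, however, the neutrophil marker Trem1 and the monocyte markers Ly6c2, F13a1 and Ms4a4c had few sham counts. They passed the filter through their CLP libraries, so their rises were largely set in advance. In whole tissue, more cells of a type and more RNA per cell cannot be told apart, and this holds for every receptor below.

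In liver, 4 of the 9 receptors rose after CLP (Tlr2, Tlr3, Tlr6 and Tlr7), 1 fell (Tlr5) and 4 did not pass the test (Tlr1, Tlr4, Tlr8 and Tlr9). In lung, 7 rose, Tlr5 fell, and Tlr3 did not pass the test. The test was edgeR's quasi-likelihood test with Benjamini-Hochberg adjustment over all genes tested and a threshold of 0.05, and all 9 receptors passed the filter on low counts in both organs. In liver, Tlr6 (13, 6 and 10 sham counts) and Tlr9 (8, 12 and 2 sham counts) passed it through their CLP libraries. Passing in that way favours a rise. Of all genes tested, 21.4% were called higher and 21.0% lower in liver, and 23.9% higher and 24.9% lower in lung. The median log2 fold change over the 9 receptors was 1.14 in liver and 1.90 in lung, against -0.01 and -0.03 over all genes tested. CLP and sham libraries did not overlap for 6 of the 9 receptors in liver (5 higher, 1 lower) and for 8 of 9 in lung (7 higher, 1 lower), while 55.6% of all genes tested in liver and 59.7% in lung did not overlap.

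**Figure D1:**
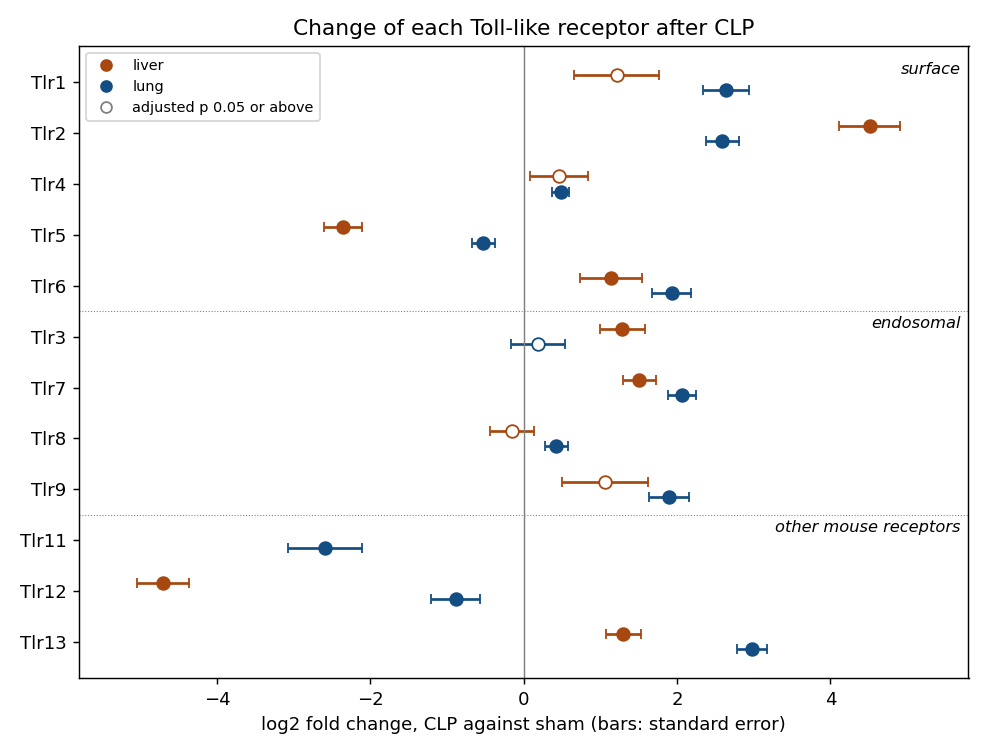
Log2 fold change of CLP against sham for each Toll-like receptor in liver (brown) and lung (blue), from edgeR with 3 libraries per group; bars are standard errors and open points have an adjusted p of 0.05 or above. Tlr2 is the highest point in liver at 4.51, Tlr5 lies below 0 in both organs, and Tlr12, a receptor outside the 9, is the lowest point in liver at -4.70.

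Tlr2 (ENSMUSG00000027995), the receptor for bacterial lipopeptides, had the largest rise of the 9 in liver. Its level was 11.1, 6.00 and 5.14 CPM in sham liver and 199, 105 and 202 CPM in CLP liver, so that the lowest CLP library lay far above the highest sham library. The means were 7.42 ± 3.23 and 169 ± 55.0 CPM (SD, n = 3 each), a 22.8-fold difference, and the log2 fold change was 4.51 ± 0.40 (standard error; edgeR adjusted p = 0.000278). It stood at rank 73 of 12392 genes ordered by log2 fold change. In lung, Tlr2 was at 26.1, 24.4 and 23.0 CPM in sham and 199.6, 125 and 117 CPM after CLP, with a log2 fold change of 2.59 ± 0.21 (edgeR adjusted p = 0.000149). The sham lung libraries lay close together and the CLP libraries did not reach down to them. The library with the lowest Tlr2 in CLP liver, replicate 2, had the highest summed neutrophil markers of that group, at 221 CPM against 211 and 160.9 CPM. The part of neutrophils in the rise of Tlr2 was not tested.

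Tlr1 and Tlr6 code for the partners with which Tlr2 binds triacylated and diacylated lipopeptides. Their transcripts share sequence, since 13.6% of the 50-base stretches of Tlr1 transcripts also stand in Tlr6 transcripts, so their counts are uncertain to the extent that such reads were split or dropped. Tlr1 (ENSMUSG00000044827) was at 2.11, 1.55 and 0.359 CPM in sham liver and 2.84, 4.33 and 1.85 CPM in CLP liver. These groups overlapped, and the log2 fold change of 1.21 ± 0.56 did not pass the test (edgeR adjusted p = 0.116). In lung, Tlr1 went from 3.73, 2.39 and 3.65 CPM to 23.4, 24.8 and 12.5 CPM, with the largest log2 fold change of the 9 there, 2.64 ± 0.30 (edgeR adjusted p = 0.000421), next to that of Tlr2 at 2.59.

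Tlr6 (ENSMUSG00000051498) was at 0.944, 0.444 and 0.598 CPM in sham liver and 1.31, 2.00 and 1.03 CPM in CLP liver, which did not overlap but stood only narrowly apart. Tlr6 entered the liver test through its CLP libraries, which favours a rise. Its log2 fold change in liver was 1.14 ± 0.40 (edgeR adjusted p = 0.0493), a call that was lost in 9 of 13 alternatives. These were DESeq2 (adjusted p = 0.0804), upper-quartile scaling (0.0719), library totals (0.102), limma-voom (0.0509), the block given in the closing section, and the fits in which CLP replicate 1 (0.079), CLP replicate 2 (0.166), sham replicate 2 (0.139) or sham replicate 3 (0.137) was left out. In lung it went from 5.52, 4.41 and 5.44 CPM to 21.9, 24.0 and 12.5 CPM, a log2 fold change of 1.93 ± 0.25 (edgeR adjusted p = 0.000646). Levels of different genes are compared here only per kilobase of exon (CPM per kb). On that scale Tlr2 stood at 3.41 to 6.37 times the sum of Tlr1 and Tlr6 in sham liver and at 19.1 to 81.2 times that sum in CLP liver. In lung the same ratio was 2.99 to 4.26 in sham and 3.00 to 5.47 after CLP, and these ranges overlapped.

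**Figure D2:**
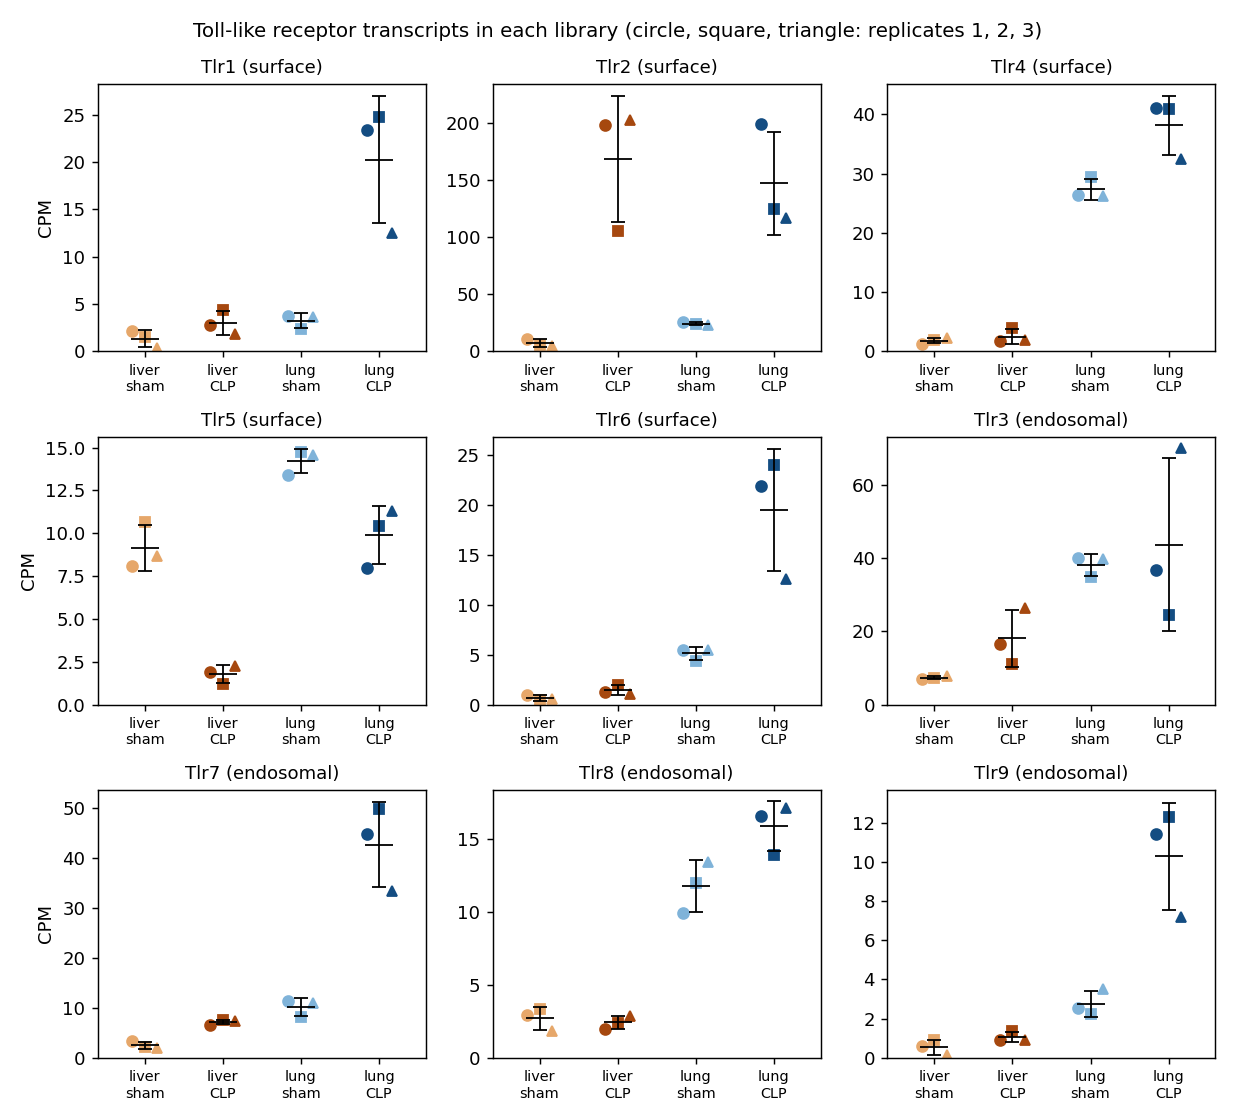
CPM of each of the 9 receptors in the 12 libraries, by group, on linear axes from 0; circles, squares and triangles are replicates 1, 2 and 3, and black bars are the mean with SD of 3 libraries. Tlr2 reaches 105 CPM or more in every CLP library of both organs, Tlr5 is lower after CLP in both organs, and the Tlr3 libraries of CLP lung spread from 24.4 to 70.0 CPM.

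Tlr4 (ENSMUSG00000039005), the signalling receptor for lipopolysaccharide, did not pass the test in liver and was modestly higher in lung after CLP. It was at 1.31, 1.92 and 2.27 CPM in sham liver and 1.69, 3.93 and 1.95 CPM in CLP liver, groups that overlapped (log2 fold change 0.46 ± 0.38, edgeR adjusted p = 0.362), and without CLP replicate 2, its highest library, the log2 fold change was -0.02. In lung it was at 26.5, 29.4 and 26.2 CPM in sham and 41.1, 41.0 and 32.4 CPM after CLP, which did not overlap. The mean there was 1.39-fold higher (log2 fold change 0.48 ± 0.11, edgeR adjusted p = 0.00837), and the call was lost when all 12 libraries entered 1 fit (adjusted p = 0.0870).

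The ligand-binding co-receptors, most of which serve Tlr4, rose in 3 of 6 cases in liver with 1 fall and in 4 of 6 in lung with none, with median log2 fold changes of 0.40 and 0.73. Cd14, which passes lipopolysaccharide to Tlr4 and also serves Tlr2, went from 10.46, 7.77 and 5.08 to 788, 479 and 441 CPM in liver (log2 fold change 6.20, edgeR adjusted p = 4.14e-05) and from 26.8, 26.98 and 24.97 to 654, 399 and 240.3 CPM in lung (4.04, 0.000274). Per kb, Cd14 stood at 7.18 to 25.7 times Tlr4 in sham liver and at 391 to 1496 times Tlr4 in CLP liver. In lung that ratio went from between 2.94 and 3.25 to between 23.8 and 51.1. Lbp, the plasma protein that binds lipopolysaccharide, rose by 0.81 in liver and 0.80 in lung on the log2 scale, and Ly96, the MD-2 subunit of the Tlr4 complex, by 0.65 and 0.78. Ly86, the partner of the Tlr4-like protein Cd180, fell by 0.94 in liver (edgeR adjusted p = 0.0242) and rose by 0.67 in lung (0.00709). Cd36, a scavenger receptor that works with Tlr2 and Tlr6 and the co-receptor of highest mean, did not pass the test in either organ (0.14 and -0.37). Its direction in liver turned to -0.05 with scaling by library totals and to -0.13 without CLP replicate 2.

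Tlr5 (ENSMUSG00000079164), the flagellin receptor, was the receptor of the 9 that fell, and it fell in both organs. It was at 8.06, 10.7 and 8.67 CPM in sham liver and 1.92, 1.20 and 2.26 CPM in CLP liver, a 5.09-fold lower mean (log2 fold change -2.36 ± 0.24, edgeR adjusted p = 0.000217). The groups stood well apart, and Tlr5 stood at rank 194 of 12392 genes counted from the lowest log2 fold change. In lung it was at 13.4, 14.7 and 14.5 CPM in sham and 7.997, 10.4 and 11.3 CPM after CLP, a 1.44-fold lower mean (log2 fold change -0.53 ± 0.15, edgeR adjusted p = 0.0183). The call in lung was lost without sham replicate 2 (adjusted p = 0.0635) or sham replicate 3 (0.0739). In liver, markers of some resident cells fell too. Of the Kupffer cell markers 4 of 7 fell and none rose (summed level 438 to 498 CPM in sham, 248 to 409 CPM after CLP), and of the sinusoidal endothelial markers 7 of 7 fell (249 to 328 CPM in sham, 114 to 169 CPM after CLP). Other resident lists of 7 markers did not fall as a whole. Of general endothelial markers 3 fell and 1 rose, of fibroblast and stellate cell markers 1 fell, and of hepatocyte markers 2 fell and 1 rose. The summed level of each of these lists overlapped between sham and CLP liver. The part of any of these cells in the fall of Tlr5 was not tested.

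Tlr3 (ENSMUSG00000031639), which binds double-stranded RNA and signals through TRIF, rose in liver, and in lung it did not pass the test. It was at 7.12, 7.18 and 7.77 CPM in sham liver and 16.7, 11.1 and 26.5 CPM in CLP liver, with tight sham values and no overlap (log2 fold change 1.28 ± 0.29, edgeR adjusted p = 0.0102). In lung it was at 40.0, 34.8 and 39.7 CPM in sham and 36.6, 24.4 and 70.0 CPM after CLP, so that the CLP libraries lay on both sides of the sham libraries (log2 fold change 0.19 ± 0.35, edgeR adjusted p = 0.686). Without CLP replicate 3, the highest, the log2 fold change in lung was -0.28. The exons of Tlr3 overlap those of the antisense gene Gm45542 over 381 bases in GENCODE M21, and without strand in the counting, reads from the pair cannot be separated.

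Tlr7 (ENSMUSG00000044583), a sensor of single-stranded RNA, rose in both organs. It was at 3.27, 2.22 and 2.03 CPM in sham liver and 6.61, 7.45 and 7.28 CPM in CLP liver (2.84-fold by the means, log2 fold change 1.51 ± 0.22, edgeR adjusted p = 0.000967). In lung it went from 11.4, 8.15 and 11.03 CPM to 44.8, 49.8 and 33.3 CPM (4.17-fold, log2 fold change 2.06 ± 0.18, edgeR adjusted p = 0.000145). In both organs the CLP libraries all lay above the sham libraries, and both calls held under every alternative run.

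Tlr8 (ENSMUSG00000040522), the relative of Tlr7, was at 2.90, 3.33 and 1.85 CPM in sham liver and 2.00, 2.40 and 2.87 CPM in CLP liver. These groups overlapped and the log2 fold change of -0.15 ± 0.29 did not pass the test (edgeR adjusted p = 0.700). In lung it went from 9.90, 11.96 and 13.4 CPM to 16.5, 13.9 and 17.1 CPM, a log2 fold change of 0.43 ± 0.15 (edgeR adjusted p = 0.0401). The lowest CLP library in lung, replicate 2, lay just above the highest sham library, replicate 3. The call was lost with upper-quartile scaling (adjusted p = 0.102) or library totals (0.103), in the fit of 12 libraries (0.103), and without CLP replicate 1 (0.107), CLP replicate 3 (0.0602), sham replicate 1 (0.124) or sham replicate 2 (0.0967).

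Tlr9 (ENSMUSG00000045322), the receptor for unmethylated CpG DNA, was close to the floor of detection in liver, at 0.581, 0.888 and 0.120 CPM in sham and 0.922, 1.36 and 0.923 CPM after CLP. The groups touched without overlap, the sham replicate 3 value was under 3 counts, and the log2 fold change of 1.06 ± 0.56 did not pass the test (edgeR adjusted p = 0.159). In lung it went from 2.52, 2.24 and 3.50 CPM to 11.4, 12.3 and 7.18 CPM (3.74-fold, log2 fold change 1.90 ± 0.26, edgeR adjusted p = 0.000731). B cell markers, of which 0 of 7 passed the filter in liver, summed to at most 2.54 CPM there, and in lung to between 11.7 and 31.7 CPM in sham and between 30.1 and 41.1 CPM after CLP, where 1 of 6 tested rose. Plasmacytoid dendritic cell markers rose in 2 of 5 cases in lung, and their summed level went from between 216 and 254 to between 262 and 301 CPM. Cox6a2 of that list was at 0 in both groups of liver, and the part of either cell type in the level of Tlr9 was not tested.

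In CLP lung, replicate 3 was the lowest library for Tlr1, Tlr2, Tlr4, Tlr6, Tlr7 and Tlr9 and the highest for Tlr3, Tlr5 and Tlr8. Its summed neutrophil markers were the lowest of the group, 6546 CPM against 8509 and 9181 CPM, as were its leukocyte markers, 1174 CPM against 1726 and 1605 CPM. Whether cell content set the receptor levels of this library was not tested.

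Of 9 genes whose products fold, carry and cleave the receptors, 3 rose and 1 fell in liver and 4 rose and 2 fell in lung, with median log2 fold changes of 0.21 and 0.14. Unc93b1, which carries the endosomal receptors out of the endoplasmic reticulum, was at 0.21 in liver (edgeR adjusted p = 0.0975) and 0.34 in lung (0.00640). Among the lysosomal proteases known to cut endosomal receptors, Ctsb rose by 0.62 in liver and 0.93 in lung, Lgmn by 0.47 and 0.43, and Ctss was at 0.09 in liver (adjusted p = 0.541), where scaling by library totals gave -0.11, and 0.73 in lung (0.000321). Cnpy4, a homologue of the receptor chaperone Cnpy3, fell by 1.06 in liver and by 0.58 in lung. Hsp90b1, the chaperone gp96 and the gene of highest mean in the list, did not pass the test in either organ (0.24 and 0.14), and without CLP replicate 2 its value in liver was -0.08. The exons of Ctsb overlap those of Fdft1 on the other strand.

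The surface and the endosomal receptors were then set side by side per kb of exon. Of the 5 surface receptors, 2 rose, 1 fell and 2 did not pass the test in liver, and 4 rose and 1 fell in lung. Of the 4 endosomal receptors, 2 rose and 2 did not pass in liver, and 3 rose and 1 did not pass in lung. The median log2 fold change was 1.14 for surface and 1.17 for endosomal receptors in liver, and 1.93 and 1.16 in lung. The surface receptors made up 67.4%, 62.4% and 62.3% of the summed level of the 9 in sham liver and 92.3%, 88.3% and 89.7% in CLP liver, with no overlap. In lung their share was 57.4%, 59.2% and 54.3% in sham and 77.3%, 72.8% and 65.6% after CLP, again with no overlap. With Tlr2 left out of the sum, the surface share in liver went the other way, from between 47.1% and 50.4% in sham to between 17.2% and 35.8% after CLP. In lung without Tlr2 it was 40.6% to 44.8% in sham and 35.0% to 49.1% after CLP, ranges that overlapped. These shares are taken within a library and do not depend on the scaling between libraries. They cover the 9 receptors only and leave out Tlr11, Tlr12 and Tlr13, which also act within endosomes. Tlr13 had a mean of 5.24 CPM per kb in sham lung and 41.2 in CLP lung. The 4 endosomal receptors counted here summed to 12.65 to 15.08 in sham lung and 24.28 to 28.42 in CLP lung. In liver, Tlr12 had a mean of 3.08 CPM per kb in sham and 0.114 after CLP, and Tlr13 had 0.969 and 2.37. The 4 endosomal receptors summed to 2.54 to 3.14 in sham liver and 5.01 to 7.93 in CLP liver. The shares and shifts in both organs, with and without Tlr2, are therefore stated for the 9 and not for the whole family.

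Tlr2 alone made up 29.98% of the summed level of the 9 in sham liver and 87.1% in CLP liver, and 25.1% in sham lung and 51.3% in CLP lung, from group means. In sham liver Tlr5 came second at 1.91 CPM per kb (1.68 to 2.23 over the libraries), just under Tlr2 at 2.46 (1.71 to 3.69), and these ranges overlapped. In CLP liver Tlr5 was eighth at 0.374 CPM per kb, and Tlr2 at 55.99 was followed by Tlr3 at 3.47. In sham lung Tlr2 at 8.12 (7.62 to 8.64) and Tlr3 at 7.33 (6.67 to 7.68) CPM per kb led with ranges that overlapped, followed by Tlr4 at 4.93. In CLP lung Tlr7 at 10.4 (8.15 to 12.2) came after Tlr2 at 48.9, and Tlr3 at 8.39 (4.69 to 13.4) did not stand apart from it.

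**Figure D3:**
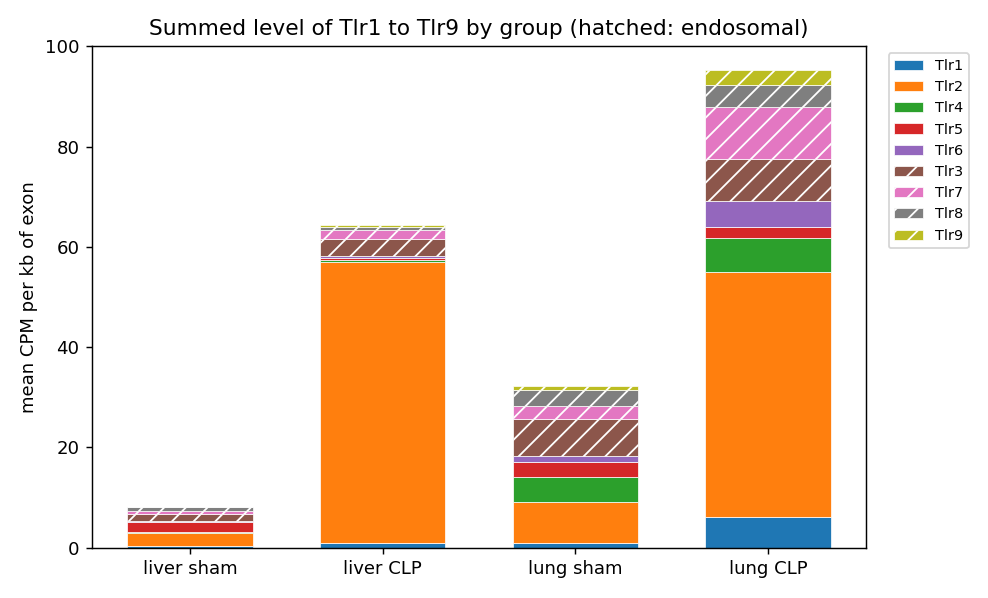
Group means of CPM per kb of exon for Tlr1 to Tlr9, stacked in each of the 4 groups, with endosomal receptors hatched; CPM are scaled within each organ, so bar heights of liver and lung are not on a common scale. Tlr2 (orange) makes up 87.1% of the CLP liver bar and 51.3% of the CLP lung bar.

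The levels of the sham organs were compared in the fit of all 12 libraries, where 44.4% of all genes were called higher and 36.5% lower in sham lung. There 6 of the 9 receptors were higher in sham lung than in sham liver, Tlr5 was lower, and Tlr1 and Tlr2 did not pass the test. Tlr4 differed most, with a log2 difference of 2.52 ± 0.26 (edgeR adjusted p = 6.29e-07), followed by Tlr6 at 1.59 ± 0.37, Tlr9 at 1.08 ± 0.47, Tlr3 at 1.014 ± 0.36, Tlr8 at 0.78 ± 0.21 and Tlr7 at 0.67 ± 0.22. Tlr5 was at -0.72 ± 0.18 (adjusted p = 0.00200), Tlr2 at 0.37 ± 0.33 (0.315) and Tlr1 at -0.03 ± 0.51 (0.956). These differences depend on how the organs are scaled to each other, and the scaling factors of this fit ran from 0.576 to 0.713 in liver and from 1.53 to 1.67 in lung. On library totals the median gene was 1.5 higher on the log2 scale in lung against 0.19 here, 83.3% of calls were higher in lung against 54.9% here, and all 9 receptors were called higher, with Tlr5 at 0.60 and Tlr1 at 1.27. Without liver sham replicate 3, 4 receptors stayed past the threshold (Tlr4, Tlr5, Tlr6 and Tlr8). There the adjusted p-values of Tlr3, Tlr7 and Tlr9 were 0.0647, 0.103 and 0.294. Leaving out another library also ended these calls, for Tlr3 without liver sham replicate 1 (0.0894), liver sham replicate 2 (0.0802) or lung sham replicate 3 (0.051) and for Tlr7 without liver sham replicate 2 (0.0759). For Tlr9 it did so without any of 7 other libraries, with adjusted p-values of 0.0563 to 0.141. With all libraries kept, the call of Tlr3 was lost with no filter on low counts (edgeR adjusted p = 0.0608) and that of Tlr7 with limma-voom (0.055).

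The order of the 4 groups was read with CPM scaled within each organ and again with scaling over all 12 libraries, since the order between organs changed with this choice for several receptors. CLP lung had the highest mean of Tlr1, Tlr4, Tlr6, Tlr7, Tlr8 and Tlr9 under both, with no overlap with the next group. Tlr4 and Tlr8 also kept both lung groups above both liver groups. Tlr2 was highest in CLP liver under both. With scaling within the organ CLP liver (169 ± 55.0 CPM) overlapped with CLP lung (147 ± 45.4), above sham lung (24.5 ± 1.55) and sham liver (7.42 ± 3.23). Over 12 libraries CLP liver (271.6) stood apart from CLP lung (90.8), and sham lung (15.3) overlapped with sham liver (11.9). Tlr5 was highest in sham lung (14.2 ± 0.721) with scaling within the organ, where CLP lung (9.90 ± 1.70) overlapped with sham liver (9.13 ± 1.36), and highest in sham liver (14.7, against 8.91 in sham lung) over 12 libraries. CLP liver was the lowest group of Tlr5 under both. Tlr3 was highest in CLP lung (43.7 ± 23.6) within the organ and in CLP liver (29.1, against 26.9 in CLP lung) over 12 libraries, and in each case the highest group overlapped with the next. Sham lung stood above CLP liver without overlap for Tlr6, Tlr7 and Tlr9 within the organ. Over 12 libraries these groups overlapped for Tlr6 and Tlr9, and for Tlr7 CLP liver (11.5) stood above sham lung (6.39).

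The difference between the organs in the response to CLP was tested itself, by subtracting the liver response from the lung response in 1 fit of 12 libraries, where 8.89% of all genes were called higher and 8.84% lower. Of the 9 receptors, 2 passed. For Tlr2 the difference was -1.95 ± 0.44 (edgeR adjusted p = 0.0106), which is a smaller rise in lung than in liver, and this call was lost with no filter on low counts (adjusted p = 0.0567). For Tlr5 it was 1.81 ± 0.29 (edgeR adjusted p = 0.000946), a smaller fall in lung. The other 7 did not pass, among them Tlr1 at 1.38 ± 0.66 (0.183), Tlr3 at -1.12 ± 0.50 (0.158) and Tlr8 at 0.55 ± 0.31 (0.256). Tlr6 was at 0.75 ± 0.51, Tlr7 at 0.52 ± 0.30 and Tlr9 at 0.79 ± 0.64, so for these a different response in the organs was not detectable at this depth and number of libraries. The difference of Tlr3 passed without lung CLP replicate 3 (-1.62, adjusted p = 0.0133) and with the replicate block given in the closing section. That of Tlr1 passed without liver sham replicate 3 (1.92, 0.0344).

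The other mouse receptors of the family, Tlr11, Tlr12 and Tlr13, were read beside the 9. Tlr11 and Tlr12 bind profilin of protozoa and Tlr13 binds bacterial ribosomal RNA, all within endosomes. Tlr12 was at 7.33, 9.25 and 12.8 CPM in sham liver and 0.461, 0.321 and 0.308 CPM in CLP liver (log2 fold change -4.70 ± 0.34, edgeR adjusted p = 4.67e-05), rank 14 of 12392 genes counted from the lowest. The CLP liver libraries held 6, 4 and 3 counts of it. In lung it was at 1.79, 2.09 and 3.28 CPM in sham and 1.63, 1.21 and 1.00 CPM after CLP (-0.89 ± 0.32, adjusted p = 0.0499), a call lost in DESeq2 (0.0966), in limma-voom (0.0574) and without CLP replicate 1 (0.0522), CLP replicate 2 (0.117), CLP replicate 3 (0.131), sham replicate 2 (0.0783) or sham replicate 3 (0.219). Its difference in response was 3.81 ± 0.52 (edgeR adjusted p = 0.000369). The Kupffer cell and sinusoidal endothelial markers given beside Tlr5 fell in the same CLP liver libraries, and their part in the fall of Tlr12 was not tested.

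Tlr13 went the other way, from 5.45, 4.07 and 2.99 to 11.99, 9.54 and 9.03 CPM in liver (1.30 ± 0.23, edgeR adjusted p = 0.00273) and from 26.0, 19.97 and 21.7 to 189, 212 and 131 CPM in lung (2.98 ± 0.20, 6.36e-05). In lung its rise was the largest of the whole family, and its difference in response was 1.64 ± 0.32 (edgeR adjusted p = 0.00341). Tlr11 had 3, 6 and 2 counts in sham liver and 0 in each CLP liver library, too few to enter the test there. In lung Tlr11 fell by 2.59 on the log2 scale (edgeR adjusted p = 0.00289), from 11, 11 and 19 counts to 3, 2 and 1 counts. It passed the filter there through its sham libraries, so a fall was largely set in advance.

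Downstream of the receptors, the TIR adaptors rose in 5 of 5 tested cases in liver and 4 of 5 in lung. Myd88, the adaptor of all 9 receptors except Tlr3, went from 33.5, 42.3 and 32.0 to 96.4, 91.5 and 95.7 CPM in liver (log2 fold change 1.40, edgeR adjusted p = 0.000106) and from 48.3, 54.0 and 53.3 to 185, 155 and 159 CPM in lung (1.68, 2.11e-05). Pik3ap1, the adaptor BCAP and the gene of highest mean in the list, rose by 1.61 and 1.82. Ticam1, the adaptor TRIF of Tlr3 and Tlr4, rose by 0.35 and 0.46. Sarm1 did not pass the filter in lung, where it had 9, 12 and 10 counts in sham and 1, 3 and 4 counts after CLP. In liver it rose by 2.48, and its difference in response in the fit of 12 libraries was -4.29 ± 0.63 (edgeR adjusted p = 0.000571). With 9, 15 and 8 sham counts, Sarm1 passed the filter in liver through its CLP libraries, which favours a rise. Ticam2 was tested within lung only, where it was at 0.16 (adjusted p = 0.614). The exons of Myd88 overlap those of Acaa1a on the other strand.

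Of 17 signalling kinases and ligases, 8 rose in liver and 11 in lung, none fell in either organ, and the medians were 0.48 and 0.36. Ikbke, the inducible kinase that phosphorylates interferon regulatory factors, rose by 2.55 in liver and 5.01 in lung, and its relative Tbk1 by 0.99 and 0.92. Of 9 transcription factors, 7 rose and 1 fell in liver and 8 rose and 1 fell in lung. Irf7, which serves Tlr7 and Tlr9, rose by 1.99 and 2.74, Nfkb2 by 2.64 and 2.48, and Nfkb1, the factor of highest mean, by 0.88 and 0.45. Irf5 was at 0.28 in liver (edgeR adjusted p = 0.412; -0.01 without CLP replicate 1) and rose by 1.87 in lung. Irf3, the constitutive factor downstream of Tlr3 and Tlr4, fell by 0.39 in liver (edgeR adjusted p = 0.0267) and by 0.26 in lung (0.0202).

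Negative regulators of the pathway rose in 7 of 11 tested cases in liver and 7 of 12 in lung, with 1 fall in each and medians of 2.14 and 2.06. Irak3, the kinase homologue IRAK-M that restrains signalling, rose by 3.15 in liver and 3.08 in lung, and Tnip1, a partner of A20, by 2.14 and 2.86. Nfkbia, the inhibitor of NF-kB and the regulator of highest mean, rose by 2.33 and 2.12. Socs1, an inhibitor of cytokine signalling, went from 0.871, 0.888 and 0.777 to 43.0, 33.6 and 33.2 CPM in liver (5.43, edgeR adjusted p = 4.53e-06) and rose by 2.95 in lung. Sigirr, a membrane inhibitor of the pathway, fell by 1.13 in liver and by 0.77 in lung. One gene of this list, Ptpn6, also stands among the leukocyte markers.

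Of 9 known targets of the pathway, 6 were tested in liver and 7 in lung. All of these rose, with medians of 4.50 and 5.60. Tnf, Il6 and Cxcl2 in both organs, and Acod1 in liver, had few sham counts and passed the filter through their CLP libraries. Il6 had 0, 0 and 2 counts in sham liver and 0, 2 and 0 in sham lung. For such genes a rise was largely set in advance by the filter. The chemokine gene Cxcl2 rose by 5.28 in liver and 9.46 in lung, Acod1, the itaconate enzyme, by 7.10 and 5.60, and Il1b, the interleukin-1 beta gene and the target of highest mean, by 1.95 and 3.16. Beside these, the median over all genes tested was -0.01 in liver and -0.03 in lung, and the shares of genes called are those given for the receptors.

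**Figure D4:**
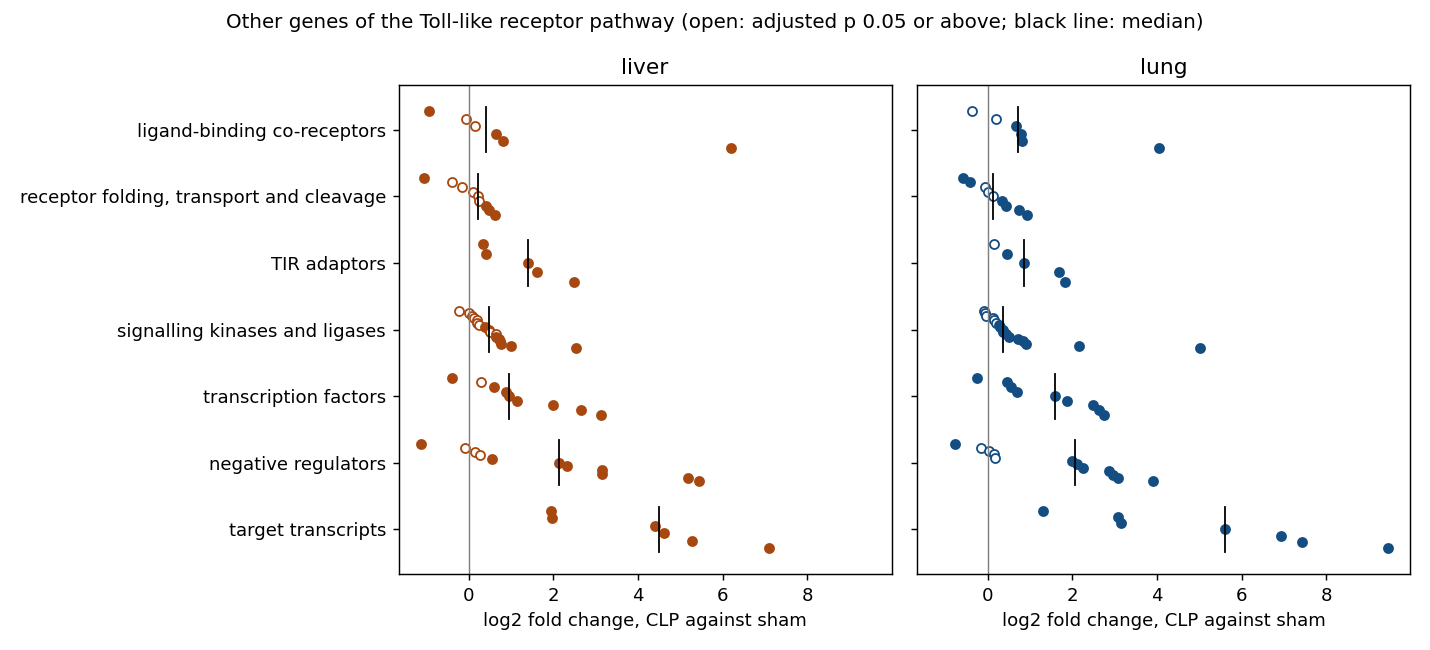
Log2 fold change of CLP against sham for every tested gene of 7 lists of the Toll-like receptor pathway in liver (left) and lung (right); open points have an adjusted p of 0.05 or above and black lines are the medians of the lists. The target transcripts have the highest medians, 4.50 in liver and 5.60 in lung, and receptor folding, transport and cleavage the lowest, 0.21 and 0.14. Several of the targets passed the filter through their CLP libraries.

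The genes whose levels ran most like each receptor over the 12 libraries were ranked by Pearson's r of log2 CPM, leaving out predicted genes and the family itself. These values describe libraries that share organ and surgery, and they carry no test. For Tlr2 they were Cd14 (r = 0.989), Chic2 (0.988) and Rlf (0.982), and for Tlr4 they were Nav1 (0.989), Grk3 (0.987) and Cfap45 (0.987). Tlr6 ran most like Fgd3 (0.993), Smpdl3b and Ccdc88b (0.988 each), and Tlr1 most like Itgb3 (0.956), Abcb1b (0.942) and March1 (0.927). Tlr7 was closest to Cybb (0.987), the catalytic subunit of the phagocyte NADPH oxidase, then Capza1 (0.985) and Batf (0.982). Tlr9 was closest to Trem3 (0.956), Mir142hg (0.950) and Xylt1 (0.949), and Tlr8 to Ccnj (0.967), Prune2 (0.963) and Adamts14 (0.957). For Tlr5 they were Ntpcr (0.972), Ptk6 (0.962) and Spns2 (0.956). Tlr3 stood with Dcp2 (0.941), Enpp4 (0.927) and Oas1c (0.910), the last a member of the 2′-5′ oligoadenylate synthetase family.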

How the data were processed

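Liver and lung RNA was sequenced with a stranded Illumina kit, per the labels' protocols. The values are raw whole-number counts per Ensembl gene, as deposited by the authors. The submitters' processing notes list STAR 2.7.10a, featureCounts, FastQC, DESeq2 and the build mm39, with no role or order. How strand and multiply mapped reads were handled is not given in the sources used here. Symbols were matched by identifier for 52081 of 55414 genes.

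CLP was set against sham within each organ (6 libraries) with edgeR 4.0.16 in R 4.3.3: filter by expression (minimum count 10, total 15), scaling by the trimmed mean of M values (TMM), and the robust quasi-likelihood test, two-sided, with Benjamini-Hochberg adjustment over all genes tested. The difference in response and the comparison of sham organs used all 12 libraries. Standard errors are the log2 fold change divided by the square root of F. CPM use TMM scaling within the organ, and the likeness of genes uses scaling over all 12 libraries with a prior count of 2. Lengths are exon unions of GENCODE M21, which is on GRCm38 and not on mm39, and no positions of genes are printed. The tests were tried on simulated data.

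The family, lists and tests were chosen with earlier results of these data known, while the rule for the members uses gene symbols only. Named were all 9 receptors and, of each pathway list, the 2 genes of lowest p in each organ, the lowest-p gene against the majority and the gene of highest mean. Ly96, Unc93b1, Ticam1, Sarm1 and Ticam2 were named in addition, after their values were seen. For likeness, the 3 genes of highest r were named. Alternatives tried were DESeq2 1.42.0, limma-voom (limma 3.58.1), upper-quartile scaling, library totals, no filter, a replicate block, 1 fit of 12 libraries, and leaving out each library.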

Additional observations from a re-analysis of the deposited data

Results flagged for a closer look

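Among the 12 Toll-like receptors of the mouse, 4 changed differently in the organs by the test of the difference itself, lung response minus liver response (edgeR, Benjamini-Hochberg adjustment over 16111 genes). Of all these genes, 8.89% were called higher and 8.84% lower. Tlr2 differed by -1.95 on the log2 scale (adjusted p = 0.0106; 4.51 in liver, 2.59 in lung; higher after CLP in all 3 libraries of each organ). Tlr5 differed by 1.81 (0.000946; -2.36 and -0.53). Tlr12 differed by 3.81 (0.000369; -4.70 and -0.89), with 6, 4 and 3 counts in its CLP liver libraries. Tlr13 differed by 1.64 (0.00341; 1.30 and 2.98). Their adjusted p ranged over the 18 alternatives from 0.00016 to 0.0567 for Tlr2, up to 0.00396 for Tlr5, up to 0.00183 for Tlr12 and up to 0.0154 for Tlr13.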

How the results depend on the processing

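The number of receptors called stayed within 4 to 5 in liver, 6 to 8 in lung and 2 to 3 for the difference in response when a library was left out. It fell to 1 for the difference with no filter on low counts, and for sham lung against sham liver it ranged from 4 to 7 with a library left out (4 without liver sham replicate 3). Over all genes no alternative moved the number called by more than 1.5 times. Scaling moved the directions. The median gene was at -0.105 with upper-quartile scaling and -0.207 with library totals in liver, and at -0.14 and -0.134 in lung. The share of calls that were higher went from 50.4% to 40.3% and 30.8% in liver, from 49.0% to 37.2% and 38.0% in lung, and, with library totals, from 50.1% to 65.9% for the difference and from 54.9% to 83.3% between sham organs.

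Apart from Tlr5 between sham organs, at 0.60 with library totals, no value that changed sign had passed the test. Tlr1 between sham organs was at 0.036 with DESeq2, 0.21 with upper-quartile scaling, 1.27 with library totals, 0.064 with no filter, 0.25 with limma-voom and 0.016 with the replicate block, and from -0.60 to 0.37 with a library left out. The Tlr4 difference was at 0.11 with library totals, 0.00065 with no filter, 0.063 with limma-voom and 0.028 with the replicate block, and from -0.17 to 0.56 with a library left out. In liver, library totals gave -0.046 for Cd36 and -0.11 for Ctss. With a library left out, liver values ranged from -0.023 to 0.70 for Tlr4, -0.37 to 0.032 for Tlr8, -0.13 to 0.38 for Cd36, -0.080 to 0.41 for Hsp90b1 and -0.0072 to 0.53 for Irf5, and Tlr3 in lung from -0.28 to 0.51. The cause was not tested.

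Same-numbered libraries were not treated as pairs, since in no pairing of groups did all 3 correlations of their deviations exceed 0.1 (range over all -0.0126 to 0.144). Between CLP liver and CLP lung they were 0.133, 0.0506 and 0.144. Such a rule cannot show that libraries are unpaired. The labels do not say whether liver and lung libraries came from the same mice, which the test of the difference does not take into account. With the number as a replicate block, 5 receptors were called in liver (Tlr1 gained at adjusted p = 0.0358, Tlr6 lost at 0.0801), 8 in lung (Tlr12, outside the 9, lost at 0.0892), 3 for the difference (Tlr3 gained at 0.000446) and 7 between sham organs, and over all genes 5245, 6870, 2901 and 13068. At 3 counts to 0.308 CPM or less, depth limits Tlr9, Tlr6 and Tlr1 in liver and Tlr11 in both organs.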
